A study of Mus musculus with 12 samples.

Results

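The genes described here are the cell cycle brake and accelerator of the G1 phase: the 3 D cyclins (Ccnd1, Ccnd2 and Ccnd3), their kinase Cdk4, the 3 Cip/Kip inhibitors (Cdkn1a, Cdkn1b and Cdkn1c) and 3 INK4 inhibitors (Cdkn2a, Cdkn2b and Cdkn2c). They were found by symbol and are 10 of the 23234 genes in the deposited table. The study sequenced RNA of mouse pancreatic islets and of islets that had been transplanted into inguinal subcutaneous white fat, a depot of the groin. There were 12 libraries, all labelled C57BL/6, in 3 groups of 4: isolated islets that were not transplanted, grafts of day 60 and grafts of day 120. The labels name no treatment, transgene, sex or age for any group. The replicates are numbered but are not said to come from separate animals or islet preparations, so every p-value below reflects spread between libraries alone, possibly of technical origin. All levels are FPKM, fragment counts that the authors scaled by transcript length and by library size, so that a level can be compared between genes. The labels do not state how the libraries were scaled to each other, and other scalings changed some calls. The number of reads behind each value is unknown.

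D cyclins bind Cdk4 or its close relative Cdk6, and the active kinase phosphorylates the retinoblastoma protein RB, which then releases E2F transcription factors to switch on DNA replication genes. INK4 proteins bind Cdk4 and Cdk6 themselves and keep cyclin D away, whereas Cip/Kip proteins bind complexes of cyclin and kinase and chiefly block Cdk2. In the mouse islet, Cdk4 and cyclin D2 are needed for the growth of beta cell mass after birth, and the product of Cdkn2a accumulates with age and restrains beta cell division.

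The islet label was checked against 8 beta cell markers, whose summed level was 17451 to 28434 FPKM in isolated islets, 29690 to 49807 at day 60 and 36907 to 47600 at day 120. Such a sum follows its most abundant genes. Of the 8 markers, 1 was called higher at day 60 and 2 at day 120, and none lower. Their median log2 change was -0.23 at day 60 and 0.72 at day 120, against 0.27 and 0.30 over all tested genes. The grafts also held RNA of other cells. The summed level of 6 fibroblast markers was 16.95 to 22.99 FPKM in isolated islets, 675 to 4894 at day 60 and 262 to 749 at day 120. Day 60 replicate 1 stood apart, with the highest sums of fibroblast (4894), adipocyte (9738) and macrophage (3924) markers of all 12 libraries and the lowest beta cell sum among the grafts. Conversely, 8 acinar markers summed to 5932 to 66911 FPKM in isolated islets and to at most 1.42 in any graft, with Amy2a5 and Cpb1 listed at 0 in all 8 grafts. In such bulk samples, fewer cells of a type and less RNA per cell cannot be told apart.

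Grafts at both times had less Cdkn1a and more Cdk4, Cdkn1c and Cdkn2c RNA than isolated islets. At day 60 Cdkn1c averaged 8.19 times and Cdkn2c 6.32 times its level in isolated islets, Cdk4 was 1.67 times as high, and Cdkn1a was 2.77-fold lower. At day 120 Cdkn1a was 4.63-fold lower, and Cdk4 was 1.80, Cdkn1c 3.55 and Cdkn2c 2.63 times as high. The day 120 calls of Cdkn1c and Cdkn2c were each lost when certain single libraries were left out. Calls of Cdk4 and Cdkn1a were lost under some scalings between libraries, and all calls at day 120 under 1 of them. The main cyclin of these samples, Ccnd2, was lower than in isolated islets at day 60, while its level at day 120 was not distinguished from theirs. Cdkn1b and Cdkn2b were not called in either comparison.

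All 10 genes were among the 13433 that passed the filter, which asked for 1 FPKM in at least 4 libraries. At day 60, 4 of the 10 were higher and 2 lower at an adjusted p under 0.05 by limma, where 31.3% of all tested genes were higher and 12.3% lower. At day 120, 4 were higher and 1 lower, against 24.3% and 7.03% of all genes. The FPKM of the 2 groups did not overlap for 2 of the 10 genes at day 60 (background 31.1%) and for 5 at day 120 (background 35.5%). Cdkn2a, 1 of the 4 and 1 of the 5 at day 120, was under 1 FPKM in all 4 isolated islets. It passed the filter only through the grafts, which leaves 3 called higher and 4 without overlap among the other 9 genes. Cdkn1c, called higher and without overlap at both times, reached 1 FPKM in 2 of the 4 isolated islets and in every graft. It too needed the grafts to pass. Without the filter its limma adjusted p was 0.00260 at day 60 and 0.0426 at day 120. All these counts are near what the background gives for 10 genes and are not a result about the family. With 1 library left out, the day 120 count of higher genes was 1 without isolated islet replicate 2, 3 or 4 or day 120 replicate 3 or 4, 2 without day 120 replicate 2 and 6 without isolated islet replicate 1, where 31.6% of all genes were higher, against 11.5% without isolated islet replicate 3. The day 60 count of lower genes was 1 without isolated islet replicate 3. The median log2 change over the 10 was 0.45 at day 60 and 0.60 at day 120, and over all tested genes 0.27 and 0.30, so that a log2 change of about 0.3 is the general shift of these values. Both comparisons use the same 4 isolated islet libraries, so their results are not independent of each other.

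**Figure D1:**
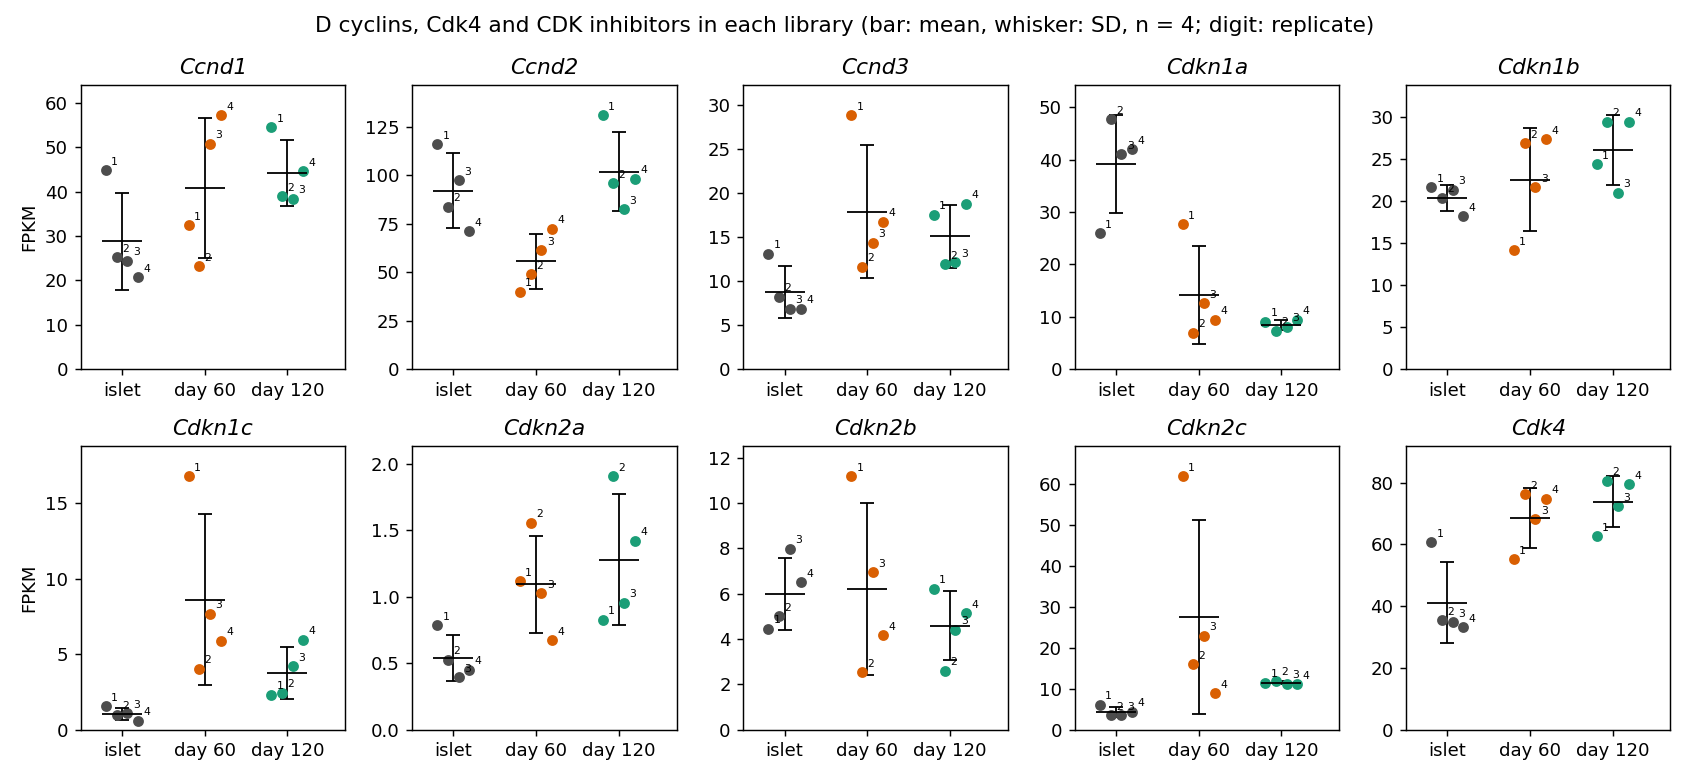
FPKM of the 10 genes (vertical axis, linear and from 0) in the isolated islets and in grafts at day 60 and day 120 (horizontal axis), 1 point per library with its replicate number, a bar at the group mean and whiskers of 1 SD (n = 4). All 4 day 120 grafts held less Cdkn1a (7.30 to 9.41 FPKM) than any isolated islet, and the high point of Cdkn1c, Cdkn2b, Cdkn2c and Ccnd3 is day 60 replicate 1.

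**Figure D2:**
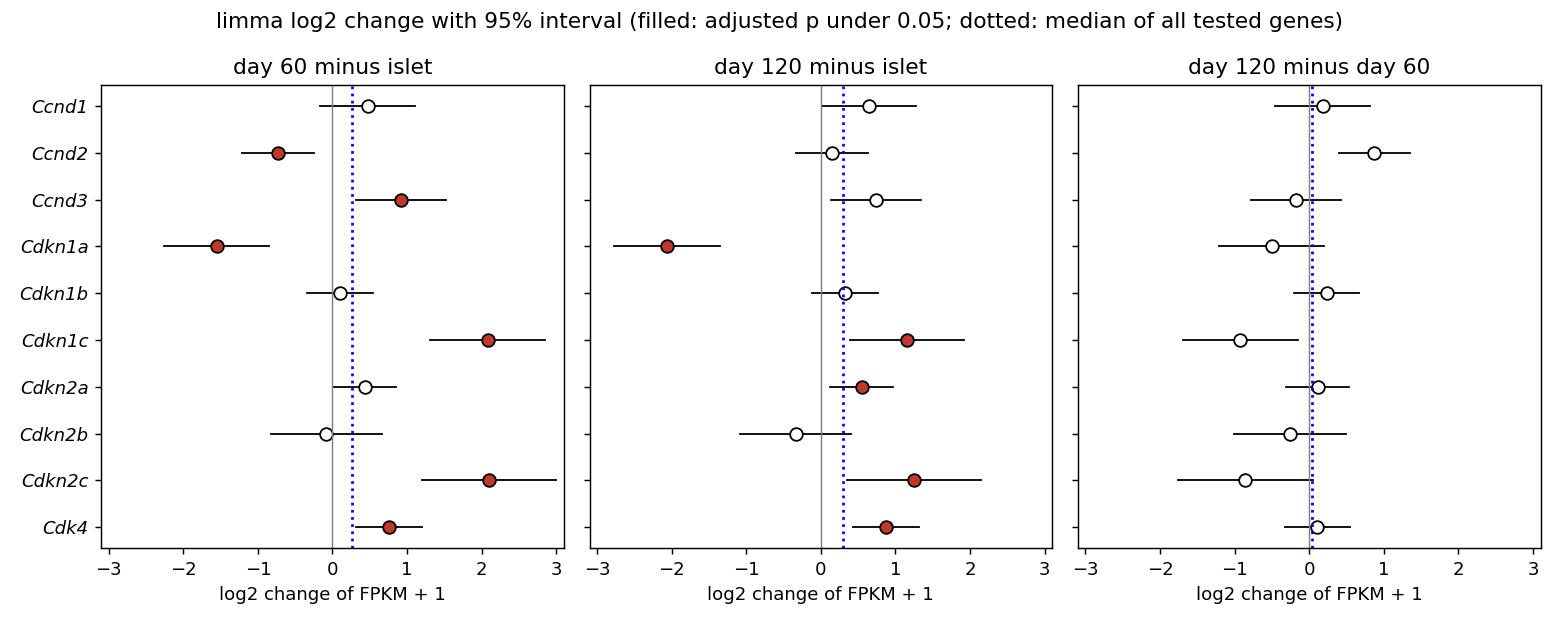
Difference in log2(FPKM + 1) between groups for each gene, with its 95% interval from limma. Filled points passed an adjusted p of 0.05 (6 genes at day 60, 5 at day 120 and none between the grafts), and the dotted line is the median of all tested genes (0.27, 0.30 and 0.03).

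Cdk4, the kinase that D cyclins activate and INK4 proteins bind, rose at both times. Its level in isolated islet replicates 1 to 4 was 60.8, 35.5, 34.8 and 33.2 FPKM. In the day 60 grafts it was 55.2, 76.3, 68.1 and 74.8 FPKM, and in the day 120 grafts 62.7, 80.7, 72.5 and 79.6. Isolated islet replicate 1 lay far above the other 3 isolated islets and within the range of the day 60 grafts, while all 4 day 120 grafts exceeded every isolated islet. The mean was 41.1 ± 13.1 FPKM (SD, n = 4) in isolated islets, 68.6 ± 9.62 at day 60 and 73.9 ± 8.28 at day 120. The log2 change was 0.76 (SE 0.204) at day 60, with a limma adjusted p of 0.0106, and 0.87 (SE 0.204) at day 120, with a limma adjusted p of 0.0101. The call at day 60 was lost after quantile normalization (limma adjusted p = 0.0806) and after scaling to the sum without hormone and acinar genes (0.166), and the call at day 120 with scaling to 17 endocrine reference genes (0.363), which sets their median log ratio equal between libraries.

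The promoter of Cdk4 is shown because it holds 4 copies of the E-box CACGTG, the site that Myc and related factors bind, and Myc is among the upstream genes described below. Promoter windows were the 250 bases before each RefSeq transcript start in GRCm38.p6, searched on both strands. They are not in the authors' build, and 7 of the 10 genes had one, with 11 windows in all. Of 32851 such windows in the genome, 6.02% held at least 1 E-box. The window lies at chr10:127063285-127063534 on the plus strand, with the E-boxes in capitals.
Cdk4: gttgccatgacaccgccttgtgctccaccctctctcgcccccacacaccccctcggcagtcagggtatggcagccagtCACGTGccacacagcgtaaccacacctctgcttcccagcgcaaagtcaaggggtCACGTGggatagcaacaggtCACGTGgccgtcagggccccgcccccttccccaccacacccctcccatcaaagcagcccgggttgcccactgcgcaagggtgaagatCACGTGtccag
None of the other 10 windows held an E-box of these letters. A match describes the letters of the window and is not evidence of binding.

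Cyclin D2, encoded by Ccnd2, was the most abundant D cyclin in every library. Ccnd2 stood at 116, 83.8, 97.4 and 71.2 FPKM in isolated islet replicates 1 to 4. It stood at 39.96, 49.0, 61.3 and 72.5 FPKM in the day 60 grafts, of which replicate 4 alone reached the range of the isolated islets. In the day 120 grafts it stood at 131, 95.8, 82.5 and 98.3 FPKM, each above every day 60 graft. The mean of Ccnd2 was 92.1 ± 19.2 FPKM in isolated islets and 55.7 ± 14.2 at day 60 (SD, n = 4), and the gene fell by 0.73 on the log2 scale (SE 0.223, limma adjusted p = 0.0197). The day 120 mean was 102 ± 20.6 FPKM and the log2 difference from isolated islets was 0.15 (SE 0.223, limma adjusted p = 0.629). The fall at day 60 did not pass the threshold without isolated islet replicate 3 (limma adjusted p = 0.0554), without both isolated islet replicate 1 and day 60 replicate 1 (0.0636), or with scaling to endocrine reference genes (0.492).

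Cyclin D1, encoded by Ccnd1 and a target of many growth factor pathways, was the second D cyclin by level. Ccnd1 was at 44.8, 25.2, 24.4 and 20.7 FPKM in isolated islet replicates 1 to 4. The day 60 grafts ranged from 23.2 (replicate 2) to 57.3 FPKM (replicate 4), and the day 120 grafts from 38.5 to 54.6. Isolated islet replicate 1 was the only isolated islet within the day 120 range. The log2 difference was 0.47 (SE 0.292) at day 60 and 0.65 (SE 0.292) at day 120, with limma adjusted p of 0.207 and 0.104. Without isolated islet replicate 1, Ccnd1 was called higher at day 120 (log2 0.88, limma adjusted p = 0.0249). It was also called there with only the 2 groups compared (0.0350). Without both isolated islet replicate 1 and day 60 replicate 1 it was called at day 60 (0.0291) and day 120 (0.0122). With limma's array weights it was called at both times (3.05e-06 and 0.000845), where 54% and 48.7% of all genes were higher.

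Cyclin D3, encoded by Ccnd3, is the third member of the family and was the least abundant in all 12 libraries. Ccnd3 was at 13.1, 8.18, 6.85 and 6.84 FPKM in isolated islets and at 28.8, 11.6, 14.3 and 16.7 FPKM in the day 60 grafts. In the day 120 grafts it was at 17.5, 11.9, 12.1 and 18.8 FPKM. Only isolated islet replicate 1 lay within the graft ranges, and day 60 replicate 1 was far above all others. Ccnd3 rose at day 60 by 0.92 on the log2 scale (SE 0.278, limma adjusted p = 0.0185). The call was lost without isolated islet replicate 3 (limma adjusted p = 0.0583) or replicate 4 (0.0571), with endocrine reference scaling (0.0671), and with upper-quartile scaling that left out day 60 replicate 1 (0.0501). The difference at day 120 was 0.74 (SE 0.278, limma adjusted p = 0.0584), and it passed the threshold without isolated islet replicate 1 (0.0176).

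As a share of the summed FPKM of the 3 D cyclins, Ccnd2 made up 71.5% ± 3.70 in isolated islets, 49.0% ± 7.76 at day 60 and 63.1% ± 2.11 at day 120 (SD, n = 4). Ccnd1 made up 21.8%, 34.8% and 27.5%, and Ccnd3 6.69%, 16.3% and 9.36%. The Ccnd2 share was 66.7% to 75.7% in isolated islets, 39.5% to 58.5% at day 60 and 60.8% to 65.3% at day 120, so the 3 groups did not overlap. The summed level of the 3 cyclins was 130 ± 32.0 FPKM in isolated islets, 114 ± 27.6 at day 60 and 161 ± 30.3 at day 120.

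A ratio of 2 genes within a library is free of the scaling between libraries if nothing is added to FPKM, and nearly so here, where 1 was added to each gene. The log2 ratio of Ccnd1 to Ccnd2 was -1.68 ± 0.248 in isolated islets, -0.49 ± 0.376 at day 60 and -1.18 ± 0.0943 at day 120 (SD, n = 4). The ratio was higher than in isolated islets by 1.198 at day 60 and by 0.50 at day 120, and day 120 minus day 60 was -0.70. In each, all 4 libraries of one group lay beyond all 4 of the other, and the two-sided exact permutation p was 0.0286, the smallest that 4 against 4 libraries can give (adjusted over 6 ratio tests, 0.0429). With nothing added to FPKM the 3 differences were 1.22, 0.52 and -0.702, with the same exact permutation p. Same-numbered grafts resembled each other, though the labels do not say that they are pairs. With signs of the 4 differences between same-numbered grafts permuted, the smallest exact permutation p is 0.125. The adjusted exact permutation p for day 120 against day 60 was then 0.15. With any library left out, 4 against 3 libraries gave adjusted exact permutation p of 0.0343 to 0.0857 for these 3 differences.

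**Figure D3:**
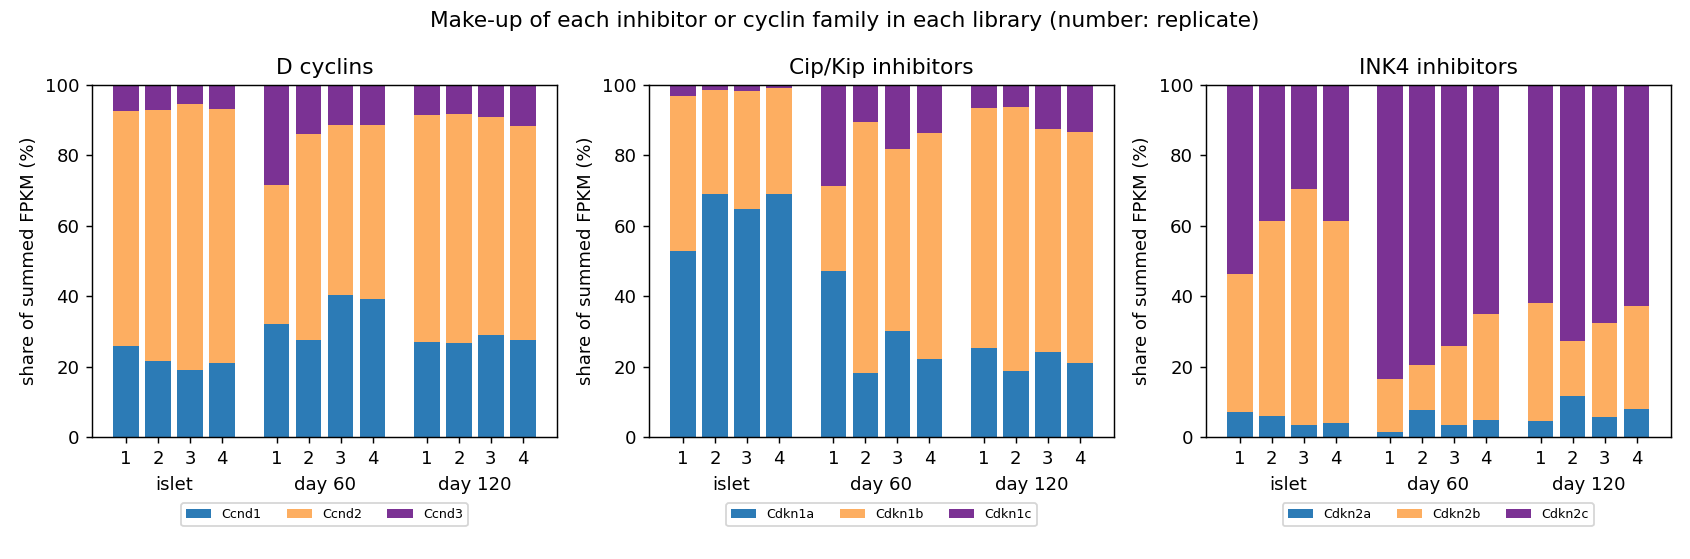
Share of summed FPKM (vertical axis, %) held by each of 3 D cyclins, 3 Cip/Kip genes and 3 INK4 genes in each library (horizontal axis, replicate number within group). The INK4 gene Cdkn2d is not included. Ccnd2 holds 66.7% to 75.7% of the D cyclins in isolated islets and 39.5% to 58.5% at day 60. Cdkn1b is the leading Cip/Kip gene in every graft except day 60 replicate 1. Cdkn2c holds 62.0% or more of the sum of the 3 INK4 genes shown in every graft.

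Cdkn1a encodes p21, which p53 induces after DNA damage and other stress. Cdkn1a stood at 25.9, 47.7, 41.1 and 42.0 FPKM in isolated islet replicates 1 to 4. It was at 27.7, 6.89, 12.6 and 9.40 FPKM in the day 60 grafts and at 9.05, 7.30, 8.06 and 9.41 FPKM in the day 120 grafts. Day 60 replicate 1 alone reached the range of the isolated islets, and the day 120 grafts all lay below every isolated islet. The mean was 39.2 ± 9.32 FPKM in isolated islets, 14.1 ± 9.32 at day 60 and 8.45 ± 0.955 at day 120 (SD, n = 4). At day 60 Cdkn1a fell by 1.55 on the log2 scale (SE 0.327, limma adjusted p = 0.00335), and at day 120 it fell by 2.06 (SE 0.327, limma adjusted p = 0.00197). Both calls held with each library left out in turn and were lost with scaling to endocrine reference genes, where the log2 changes were -1.14 (limma adjusted p = 0.147) and -2.27 (0.0646).

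The upstream promoter of Cdkn1a is shown for its p53 response element, since p53 and its targets are described below. The element, 2 adjacent p53 decamers with at most 1 mismatch outside their cores, was found in 0.0578% of the 32851 windows (19 windows). The rule allowing a mismatch was set after this window had been seen, so the share describes the motif and tests nothing. The last 91 bases before the start are at chr17:29090888-29090978 on the plus strand, with the element in capitals.
Cdkn1a: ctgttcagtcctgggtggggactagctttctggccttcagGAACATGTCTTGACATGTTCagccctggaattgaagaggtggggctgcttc
The window at the other, downstream start of Cdkn1a held 2 GC boxes and no such element.

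Cdkn1b encodes p27, the inhibitor that holds many differentiated cells in quiescence. Cdkn1b ranged from 18.2 to 21.7 FPKM in isolated islets, from 14.2 to 27.4 at day 60 and from 21.03 to 29.5 at day 120. The groups overlapped, and day 60 replicate 1 was the lowest of all libraries. The log2 difference was 0.10 at day 60 (95% interval -0.34 to 0.54, limma adjusted p = 0.724) and 0.33 at day 120 (-0.11 to 0.77, limma adjusted p = 0.226).

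Cdkn1c, an imprinted gene expressed from the maternal copy, encodes p57. Cdkn1c was near the detection filter in isolated islets, at 1.54, 0.987, 1.07 and 0.601 FPKM. It reached 1 FPKM in 2 of them and so needed the grafts to pass the filter. The day 60 grafts held 16.8, 4.02, 7.67 and 5.87 FPKM and the day 120 grafts 2.31, 2.44, 4.19 and 5.95 FPKM. Every graft exceeded every isolated islet, and day 60 replicate 1 held the most. Cdkn1c rose from 1.05 ± 0.384 to 8.59 ± 5.66 FPKM at day 60 (SD, n = 4; log2 change 2.08, SE 0.356, limma adjusted p = 0.00125). At day 120 it rose to 3.72 ± 1.72 FPKM (log2 change 1.16, SE 0.356, limma adjusted p = 0.0287). The day 60 call held under every setting tried, at log2 changes of 1.73 to 2.33 with a library left out. The day 120 call was lost when any of isolated islet replicates 2, 3 or 4 or day 120 replicates 3 or 4 was left out (limma adjusted p = 0.0664 to 0.0868), after quantile normalization (0.151) and with endocrine reference scaling (0.390).

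Of the summed Cip/Kip FPKM, Cdkn1a made up 63.9% ± 7.70 in isolated islets, 29.3% ± 12.9 at day 60 and 22.3% ± 3.05 at day 120 (SD, n = 4). Cdkn1b made up 34.3%, 52.8% and 68.1%, and Cdkn1c 1.81%, 17.8% and 9.64%. Cdkn1b was the leading gene of the 3 in 7 of the 8 grafts, and Cdkn1a in all 4 isolated islets and in day 60 replicate 1. The log2 ratio of Cdkn1a to Cdkn1b was 0.88 ± 0.437 in isolated islets, -0.77 ± 1.21 at day 60 and -1.51 ± 0.269 at day 120 (SD, n = 4). Its difference between day 120 and isolated islets was -2.39 (exact permutation p = 0.0286, adjusted 0.0429). That between day 60 and isolated islets was -1.65 (exact permutation p = 0.0857, adjusted 0.103), and without day 60 replicate 1 it was -2.21 (adjusted exact permutation p = 0.0343). Day 120 against day 60 gave -0.74 (exact permutation p = 0.314). With nothing added to FPKM the differences were -2.53, -1.74 and -0.79 in the order given, with the same exact permutation p.

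Cdkn2c, the INK4 gene that encodes p18, varied most of the 10 genes over the 12 libraries (SD of log2(FPKM + 1), 1.09). Cdkn2c was at 6.06, 3.47, 3.51 and 4.37 FPKM in isolated islet replicates 1 to 4. It was at 61.98, 15.999, 23.01 and 8.96 FPKM in the day 60 grafts and at 11.5, 11.985, 11.2 and 11.1 FPKM in the day 120 grafts. Every graft lay above every isolated islet; the day 60 grafts spread widely, while the day 120 grafts were within 1 FPKM of each other. Cdkn2c rose from 4.35 ± 1.21 to 27.5 ± 23.7 FPKM at day 60 (SD, n = 4; log2 change 2.098, SE 0.415, limma adjusted p = 0.00256). Without day 60 replicate 1 the log2 change was 1.60, and the call held under every setting tried. At day 120 Cdkn2c rose to 11.4 ± 0.397 FPKM (log2 change 1.24, SE 0.415, limma adjusted p = 0.0388). That call was lost when any 1 library of the comparison other than isolated islet replicate 1 was left out (limma adjusted p = 0.0692 to 0.0989), without the filter on low values (0.0573), and with upper-quartile (0.0537), quantile (0.0691) or endocrine reference scaling (0.455).

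The promoter of Cdkn2c at its upstream start is shown for its 3 GC boxes (GGGCGG, bound by Sp1 and related factors), the most of any of the 11 windows. A GC box was present in 32.7% of all windows, and 7 of the 11 held one. The last 135 bases before the start are at chr4:109666757-109666891 on the minus strand, with the GC boxes in capitals.
Cdkn2c: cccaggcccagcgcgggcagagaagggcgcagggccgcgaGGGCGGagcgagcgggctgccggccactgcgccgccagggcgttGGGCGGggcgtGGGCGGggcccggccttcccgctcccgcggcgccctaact
The other start of Cdkn2c held none of the motifs searched. An E2F site (TTTCCCGC, TTTGGCGC, TTTGCCGC or TTTCGCGC, in 1.86% of windows) was present in 1 of 2 windows of Cdkn2a, and a CRE (TGACGTCA, in 1.55%) in the window of Cdkn2b.

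Cdkn2a encodes 2 unrelated proteins in different reading frames, the INK4 protein p16 and the p53 regulator Arf, which a value per gene does not separate. Cdkn2a was the lowest of the 10 genes, at 0.787, 0.526, 0.396 and 0.452 FPKM in isolated islets. The day 60 grafts held 1.11, 1.56, 1.03 and 0.674 FPKM and the day 120 grafts 0.827, 1.91, 0.955 and 1.42 FPKM. No isolated islet reached 1 FPKM, so the gene passed the filter through its grafts alone, and its call is given as a value that supports nothing. The mean was 0.540 ± 0.173 FPKM in isolated islets and 1.28 ± 0.491 at day 120 (SD, n = 4; log2 difference 0.55, SE 0.194, limma adjusted p = 0.0475), and 0.0513 without the filter. With 0.1 in place of 1 added to FPKM the log2 change was 1.07 (limma adjusted p = 0.0401). It did not pass without any of isolated islet replicates 2, 3 or 4 or day 120 replicates 2, 3 or 4 (limma adjusted p = 0.0588 to 0.139). It was also lost under each of the other 4 scalings (0.0765 to 0.802). The difference at day 60 was 0.43 (SE 0.194, limma adjusted p = 0.0862).

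Cdkn2b lies beside Cdkn2a and encodes p15, an INK4 protein induced by TGF-beta. Cdkn2b ranged from 4.46 to 7.98 FPKM in isolated islets, from 2.53 to 11.2 at day 60 and from 2.598 to 6.22 at day 120. The groups overlapped at both times. The log2 difference was -0.08 at day 60 (95% interval -0.83 to 0.66, limma adjusted p = 0.867) and -0.34 at day 120 (-1.08 to 0.41, limma adjusted p = 0.460).

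Cdkn2b made up 54.9% ± 11.5 of the summed FPKM of these INK4 genes in isolated islets and Cdkn2c 40.1% ± 9.98 (SD, n = 4). Cdkn2c made up 75.6% ± 8.02 at day 60 and 66.3% ± 4.90 at day 120, with every graft (62.0% or more) above every isolated islet (53.6% or less). Cdkn2d, a further INK4 gene outside the 10, is not in these sums. It was at 3.87 ± 0.423 FPKM in isolated islets, 3.49 ± 0.489 at day 60 and 2.77 ± 0.198 at day 120. The summed FPKM of the 6 inhibitors over that of the D cyclins was 0.583 ± 0.168 in isolated islets, 0.742 ± 0.401 at day 60 and 0.352 ± 0.0566 at day 120. The day 60 value reached 1.31 in replicate 1 and was 0.386 to 0.691 in the other 3 grafts.

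Between the 2 graft times, none of the 10 genes was called by limma, where 0.00744% of all genes were higher and 0.00744% lower at day 120 (1 of 13433 each). With the replicate number as a block over the 8 graft libraries, none was called either. At an unadjusted limma p under 0.05 there were 2 of the 10 and 1356 of all genes. They were Ccnd2, with a log2 difference of 0.87 (SE 0.223), and Cdkn1c, with -0.92 (SE 0.356), each with a limma adjusted p of 0.490. Ccnd2 was the only one of the 10 whose 2 graft groups did not overlap (background 4.29%). With limma's array weights, which count libraries that stand apart for less, Ccnd2 was called higher (log2 0.64, limma adjusted p = 0.00248) and 4 genes lower, where 7.8% of all genes were higher and 13.6% lower. These 4 were Cdkn1a (-0.55, 0.00809), Cdkn1c (-0.96, 0.00240), Cdkn2b (-0.65, 0.0323) and Cdkn2c (-0.90, 0.00240).

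The scaling between libraries changed how the calls split into higher and lower. Of all genes called at day 60, 71.8% were higher with FPKM as deposited, 60.6% with upper-quartile scaling, 45.2% after quantile normalization, 55.2% with the sum without hormone and acinar genes and 90.7% with endocrine reference scaling. At day 120 the shares were 77.6%, 63.8%, 45.6%, 70.9% and 37.8% in the same order. No gene of the 10 that was called with FPKM as deposited turned its direction under any of the 4 other scalings. With the endocrine reference, 3 of the 10 were called higher and none lower at day 60 (25.1% and 2.57% of all genes), and none was called at day 120 (0.886% and 1.46%). By that scaling day 60 replicate 1 had a factor of 0.324, against 0.776 to 1.38 in the other 11 libraries.

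**Figure D4:**
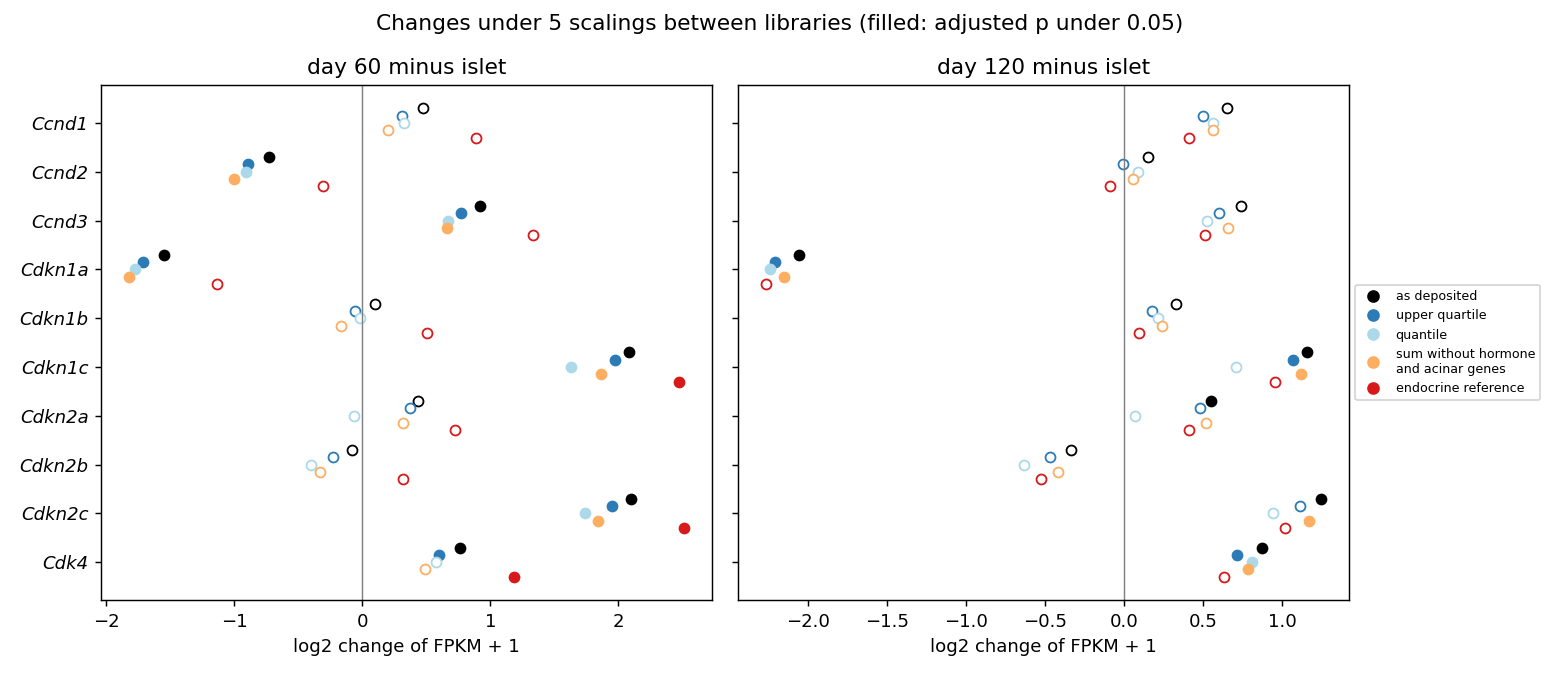
Log2 change against isolated islets (horizontal axis) of each gene at day 60 and day 120 under 5 scalings between libraries, filled where the limma adjusted p is under 0.05. Cdkn1c and Cdkn2c are filled under all 5 at day 60, and no point is filled under endocrine reference scaling at day 120.

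The other cell cycle genes were read from 5 lists. Over all tested genes, 31.3% were higher and 12.3% lower at day 60, and 24.3% and 7.03% at day 120. A count near these shares is not a result about its list. With a library of the comparison left out, 3018 to 4969 genes were higher at day 60 and 1387 to 4210 at day 120. Those called lower numbered 991 to 1892 and 394 to 1306. Counts of a list with a library left out are to be read beside these. Of 10 tested partners of G1 kinases, 4 were higher and none lower at day 60, and 2 were higher at day 120. The median log2 change was 0.40 and 0.31. Cdk2, the kinase that Cip/Kip proteins block, rose from 1.35 ± 0.304 to 3.98 ± 1.23 FPKM at day 60 (log2 change 1.06, SE 0.208, limma adjusted p = 0.00244) and was at 2.16 ± 0.513 at day 120 (limma adjusted p = 0.134). Cks1b, which helps degrade p27, rose at both times (log2 change 1.29 and 1.08, limma adjusted p = 0.00391 and 0.0146), and so did Ccnh of the CDK-activating kinase (1.49 and 1.40, limma adjusted p = 0.00543 and 0.0127). Ccnh was at 5.90 ± 5.15 FPKM in isolated islets, 15.6 ± 2.91 at day 60 and 14.6 ± 3.05 at day 120, and its groups overlapped at both times. Ccne2, a cyclin that activates Cdk2, rose at day 60 (0.48, limma adjusted p = 0.0459), and the Cdk4 chaperone partner Cdc37 was not called (0.56, limma adjusted p = 0.0594). Ccne2 reached 1 FPKM in 1 isolated islet and so needed the grafts to pass the filter (limma adjusted p without it, 0.0454). The call of Ccne2 was lost without any of isolated islet replicates 2, 3 or 4 or day 60 replicates 2 or 3 (limma adjusted p = 0.0569 to 0.132). It was also lost with 0.1 in place of 1 added to FPKM (0.0523), with only the 2 groups compared (0.0888), with upper-quartile (0.107) or endocrine reference scaling (0.0529), with the sum without hormone and acinar genes (0.232) and after quantile normalization (log2 0.0014, 0.996). With endocrine reference scaling the day 120 calls of Cks1b (limma adjusted p = 0.385) and Ccnh (0.220) were lost. Cks1b at day 120 was lost without isolated islet replicate 3 (0.0510) or 4 (0.0522). Cdc37 was called at day 60 without isolated islet replicate 1 (0.0152) or day 60 replicate 2 (0.0168), and at day 120 without isolated islet replicate 1 (0.0267). After quantile normalization 3 were higher and 2 lower at day 60, and at day 120 only 1 was higher without isolated islet replicate 3 or 4.

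Of 11 tested genes of RB and E2F, 7 were higher and none lower at day 60 and 5 were higher at day 120, with medians of 0.62 and 0.43. E2f2, an activating E2F, rose from 0.582 ± 0.236 FPKM to 2.22 ± 0.495 at day 60 and 2.28 ± 0.210 at day 120 (limma adjusted p = 0.00121 and 0.00234). The repressor E2f6 rose by 1.11 and 1.25 on the log2 scale (limma adjusted p = 0.00490 and 0.00583), and Rbl2, the RB relative p130 of resting cells, by 0.63 and 0.74 (limma adjusted p = 0.0126 and 0.0111). E2f1 rose by 0.74 and 0.60 (limma adjusted p = 0.0116 and 0.0389), and E2f3 by 0.69 at day 60 (limma adjusted p = 0.00614). The list thus held activating and repressing members with higher values in the grafts. E2f2 and E2f3 were under 1 FPKM in all 4 isolated islets and passed the filter through the grafts alone. Their calls are thus given as values only. Without the filter E2f2 had a limma adjusted p of 0.00170 and 0.00279, and E2f3 of 0.00599 at day 60. Apart from these 2 genes, 5 of 9 were higher at day 60 and 4 of 9 at day 120. Rbl2 was lost at day 60 after quantile normalization (limma adjusted p = 0.0997), with the sum without hormone and acinar genes (0.157) and with endocrine reference scaling (0.0546), and at day 120 after quantile normalization (0.05005) and with endocrine reference scaling (0.476). E2f3 at day 60 was lost after quantile normalization (0.324), and E2f2 (0.101) and E2f6 (0.143) at day 120 with endocrine reference scaling. E2f1 at day 60 was lost after quantile normalization (0.0631) and with the sum (0.139), and at day 120 with each of the other 4 scalings (0.0882 to 0.544) and without the filter (0.05002). E2f1 at day 120 was lost without any of isolated islet replicates 2, 3 or 4 or day 120 replicates 2, 3 or 4 (limma adjusted p = 0.0833 to 0.126). After quantile normalization the list had 2 higher and 2 lower at day 60, and with endocrine reference scaling it had none called at day 120. The day 120 count was 3 without any of isolated islet replicates 2 or 4 or day 120 replicates 2 or 4.

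Of 19 tested genes of S phase and mitosis, 7 were higher and none lower at day 60, while at day 120 Mcm7 was higher and Mcm6 lower. The median log2 change was 0.44 at day 60 and 0.03 at day 120, the latter below the median of all genes. Mcm7, of the replicative helicase, rose from 3.27 ± 1.00 to 7.10 ± 0.871 FPKM at day 60 (limma adjusted p = 0.00347) and to 5.60 ± 1.28 at day 120 (0.0316). Mcm6, of the same helicase, fell from 7.04 ± 0.928 to 3.59 ± 1.07 FPKM at day 120 (limma adjusted p = 0.0124), and Mcm5 rose at day 60 by 0.80 on the log2 scale (0.0127). The mitotic cyclins Ccnb1 and Ccnb2 rose at day 60, from 0.546 to 1.53 and from 0.809 to 1.76 FPKM (limma adjusted p = 0.0199 and 0.0232), and at day 120 they were at 0.586 and 1.36 FPKM (0.928 and 0.128). Ccnb1 was under 1 FPKM in every library other than the 4 day 60 grafts, and it passed the filter through them alone. Its call is thus given as a value only (limma adjusted p without the filter, 0.0221). Apart from it, 6 of 18 genes were higher at day 60. Of these, Mcm5, Ccnb2 and Top2a reached 1 FPKM in 1 isolated islet each and Birc5 in 2. They too needed the grafts to pass the filter. Without the filter their limma adjusted p was 0.0166, 0.0258, 0.0348 and 0.0591 in that order. Top2a and Birc5 were named after their values were seen. Ccnb1 (0.366), Ccnb2 (0.581) and Mcm5 (0.168) were lost at day 60 after quantile normalization, and with the sum without hormone and acinar genes (0.0692, 0.106 and 0.0603). Ccnb2 was also lost with endocrine reference scaling (0.0546), with upper-quartile scaling that left out day 60 replicate 1 (0.0566) and with only the 2 groups compared (0.0590). Mcm7 at day 120 was lost under each of the other 4 scalings (0.0768 to 0.527) and Mcm6 with endocrine reference scaling (0.185). Mcm6 was called lower at day 60 with upper-quartile scaling (0.0487) and after quantile normalization (0.0233). Ccnb1 at day 60 was lost without isolated islet replicate 3 (0.0562) or 4 (0.0598). Ccnb2 at day 60 was lost without any of isolated islet replicates 2, 3 or 4 or day 60 replicate 2 (0.0521 to 0.0806), and it was called at day 120 without isolated islet replicate 1 (0.0361). Mcm7 at day 120 was lost without any of isolated islet replicates 2, 3 or 4 or day 120 replicates 2, 3 or 4 (0.0703 to 0.0955), while Mcm5 was called there without isolated islet replicate 1 (0.0227). The day 60 count was 2 without isolated islet replicate 3 or 4 and 3 without isolated islet replicate 2 or day 60 replicate 2 or 3. It was 11 without isolated islet replicate 1, where 4 were higher at day 120. Of all genes, 23.2% were higher at day 60 without isolated islet replicate 3. Without isolated islet replicate 1, 37.3% were higher at day 60 and 31.6% at day 120. The day 60 count of the list was 1 with the sum without hormone and acinar genes and, with 2 lower, after quantile normalization.

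Of 19 tested genes of p53 and its targets, 5 were higher and 6 lower at day 60, and 2 higher and 5 lower at day 120, with median log2 changes of -0.38 and -0.08. Perp, a p53 target in cell adhesion and death, fell from 16.4 ± 4.75 FPKM to 2.43 ± 1.05 at day 60 and 3.50 ± 0.982 at day 120 (limma adjusted p = 0.000127 and 0.000900). Trp53inp1, a stress-induced partner of p53, fell from 42.8 ± 3.74 to 12.9 ± 7.13 and 10.7 ± 1.43 FPKM (limma adjusted p = 0.000590 and 0.000673). Gadd45a, a DNA damage gene, fell from 24.0 ± 5.79 to 7.06 ± 1.87 and 6.64 ± 1.21 FPKM (limma adjusted p = 0.000473 and 0.000673). For these 3 genes every graft lay below every isolated islet, and the calls held under every setting tried. At day 60 Sesn2 fell by 1.77 on the log2 scale (limma adjusted p = 0.00827). Its difference at day 120 was -1.07 (0.0849), and -1.62 without isolated islet replicate 1 (0.000878). Phlda3, a p53-induced inhibitor of Akt, moved the other way, from 1.53 ± 0.579 to 26.5 ± 28.1 FPKM at day 60 (log2 change 2.88, limma adjusted p = 0.00275) and to 7.91 ± 3.08 at day 120 (1.78, 0.0350). Phlda3 at day 120 was lost when any 1 library of the comparison other than day 120 replicate 2 was left out (limma adjusted p = 0.0563 to 0.0866), without the filter (0.0516), after quantile normalization (0.0868) and with endocrine reference scaling (0.323). Trp53, the gene of p53 itself, rose by 0.79 at day 60 and 0.75 at day 120 (limma adjusted p = 0.00849 and 0.0169). Its day 120 call was lost with some single libraries left out, as the counts below show. Bax, Ccng1 and Sesn1 rose at day 60 by 0.43, 0.97 and 0.59 (limma adjusted p = 0.0237, 0.012 and 0.0301). They were not called at day 120 (0.0565, 0.106 and 0.352). Trp53 and these targets were named after their values were seen. Pmaip1, 1 of the 5 lower genes at day 120 and named after its values were seen, was under 1 FPKM in all 4 day 120 grafts. The count of higher genes was 3 at day 60 without isolated islet replicate 3 or 4. At day 120 it was 0 without any of isolated islet replicates 2, 3 or 4 or day 120 replicate 4, and 1 without day 120 replicate 1 or 3. Without day 60 replicate 1, which adds to the shared estimate of spread, it was 4, where 35.5% of all genes were higher. At day 120, 3 were lower without isolated islet replicate 3, where 11.5% of all genes were higher and 2.98% lower.

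Of 19 tested genes that act upstream on the cyclins and inhibitors, 2 were higher and 7 lower at day 60, and 1 higher and 6 lower at day 120, with medians of -0.24 and -0.31. Igf2bp2, an RNA-binding protein of growth signalling, fell from 5.04 ± 2.29 FPKM to 0.555 ± 0.256 and 0.245 ± 0.129 (limma adjusted p = 0.000491 and 0.000273). It reached 1 FPKM in the 4 isolated islets alone and passed the filter through them, so its call is given as a value only. Without the filter the limma adjusted p was 0.000992 and 0.000620. Apart from Igf2bp2, 6 of 18 genes were lower at day 60 and 5 of 18 at day 120. Ezh2, 1 of the 2 higher genes at day 60, reached 1 FPKM in 1 isolated islet and in all 4 day 60 grafts. It needed those grafts to pass the filter (limma adjusted p without it, 0.0179). Gsk3b, a kinase that marks cyclin D1 for degradation, fell by 1.30 and 1.03 on the log2 scale (limma adjusted p = 0.00157 and 0.00892). Myc fell from 11.05 ± 1.83 to 4.41 ± 1.80 and 3.201 ± 1.58 FPKM (limma adjusted p = 0.00680 and 0.00394). Foxo3, which can induce Cdkn1b, fell by 1.07 and 0.62 on the log2 scale (limma adjusted p = 0.00178 and 0.0312), and Smad4 of TGF-beta signalling fell by 0.67 at day 60 (0.00530). At day 120 Foxo3 was lost without isolated islet replicate 1, 2 or 3 or day 120 replicate 2 or 4 (limma adjusted p = 0.0507 to 0.0967), and Smad4 was called without isolated islet replicate 1 (0.0205). The day 120 count of lower genes was 2 without isolated islet replicate 2 or 3 and 3 without isolated islet replicate 4 or day 120 replicate 2. Over all genes, 2.98% were lower without isolated islet replicate 3. The count of higher genes was 3 without isolated islet replicate 1 (31.6% of all genes) and 4 without day 60 replicate 1 (35.5%). It was 2 without day 60 replicate 2 or 4. With endocrine reference scaling 1 gene of the list was lower at each time, and the calls of Gsk3b (limma adjusted p = 0.106 and 0.132), Myc (0.220 and 0.0853), Foxo3 (0.152 and 0.244) and Smad4 (0.599 at day 60) were lost. Smad4 was called lower at day 120 with upper-quartile scaling (0.0159) and after quantile normalization (0.0124).

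Between the graft times no gene of the 5 lists was called by limma with equal weights. With array weights, 10 of the 19 S phase and mitosis genes and 1 of the 10 G1 partners were lower at day 120 and none higher, and no gene of RB and E2F was called. With those weights 3 p53 genes were higher and 5 lower and 1 upstream gene was higher and 2 lower, where 7.8% of all genes were higher and 13.6% lower.

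**Figure D5:**
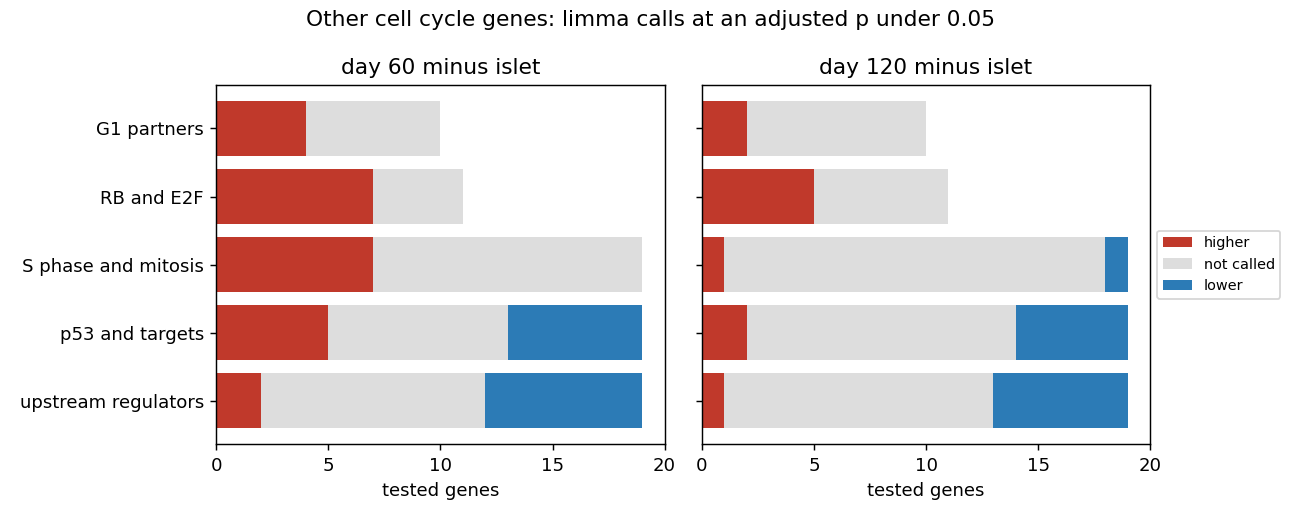
Number of tested genes (horizontal axis) in 5 lists of cell cycle genes that were higher, lower or not called by limma against isolated islets, at day 60 and at day 120. At day 60 the p53 and upstream lists had 6 and 7 of 19 genes called lower, and the RB and E2F list 7 of 11 called higher. Among these, Igf2bp2, E2f2 and E2f3 passed the filter only through the group where they are high. Over all tested genes, 31.3% were higher and 12.3% lower at day 60.

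Among all tested genes, those with the profile most like each cyclin or inhibitor over the 12 libraries were found by the root mean square difference of log2(FPKM + 1), each gene centred on its own mean. For Cdkn1a the 3 nearest were Cebpb, a transcription factor of inflammation and fat cells (0.229), the cytokine gene Il6 (0.253) and Lmna, of the nuclear lamina (0.257), against 1.16 for the median gene. For Cdkn1c they were Mxra8 (0.244), the fibroblast marker and growth factor receptor Pdgfra (0.254) and C1qtnf2 (0.255), against a median of 0.955. For Cdkn2c they were Acadm (0.197), Dse (0.203) and Decr1 (0.211), against 1.03, where Acadm and Decr1 encode enzymes of fatty acid oxidation. For Ccnd2 they were Papss2 (0.131), the fatty acid synthesis gene Acly (0.160) and Pard3 (0.167), and for Ccnd3 Tubb5 (0.110), Anp32a (0.118) and Mettl7a1 (0.124). For Cdk4 they were Ubqln4 (0.0917), Gopc (0.0944) and Rmi1 (0.0960), and for Ccnd1 Rsph3b (0.164), Dnajb2 (0.166) and Rsph3a (0.166). The nearest were Sec24c for Cdkn1b (0.106), Fam40b for Cdkn2a (0.106) and Agfg2 for Cdkn2b (0.170). These are descriptions of 12 libraries that differ in cell make-up and whose depth is unknown.

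Markers of several other cell types were also higher in the grafts. All 6 fibroblast and all 6 adipocyte markers were higher at both times, and 6 of 6 macrophage markers at day 60 and 5 of 6 at day 120. The adipocyte sum was 28.7 to 36.7 FPKM in isolated islets, 246 to 9738 at day 60 and 223 to 927 at day 120, and the macrophage sum 47.2 to 70.3, 412 to 3924 and 287 to 484. Of 6 endothelial markers 2 were higher at day 60 and 1 at day 120, with sums of 74.2 to 94.4, 71.8 to 174 and 61.8 to 149 FPKM. None of these markers was at 0 in all libraries of a group. The red cell sum was 16.5 to 45.4 FPKM in isolated islets, 1830.2 to 28585 at day 60 and 1915 to 21683 at day 120. The pericyte sum was 33.2 to 44.2, 65.3 to 203 and 39.8 to 94.3 in the same order, that of lymphocytes 3.15 to 4.36, 4.72 to 102 and 4.05 to 15.6, and that of mast cells 0 to 0.117, 11.5 to 164 and 18.1 to 37.7. The Schwann cell sum was 2.72 to 7.07, 10.04 to 23.4 and 10.05 to 31.7. The duct sum was 466 to 647 FPKM in isolated islets and at most 155 in any graft, and that of alpha and delta cells 20505 to 22999, 5336 to 30354 and 7812 to 21565. Day 60 replicate 1, which led the fibroblast, adipocyte and macrophage sums, also held the most Cdkn1c, Cdkn2c, Cdkn2b and Ccnd3 of all 12 libraries. The same library held the least Cdk4 of any graft (55.2 FPKM), although Cdk4 rose in the grafts. The part of these cells in the results was not tested. Leaving out that library does not test it, since every other graft also exceeded every isolated islet in the fibroblast, adipocyte and macrophage sums. Without that library Cdkn1c and Cdkn2c were still called higher at day 60 and Cdkn1a lower, and the counts were again 4 higher and 2 lower, against 34.8% and 11.8% of all genes. Without it and isolated islet replicate 1 together, 5 were higher and 1 lower at day 60, against 42.6% and 15.4% of all genes, and 6 higher and 1 lower at day 120, against 43.0% and 13.5%.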

How the data were processed

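RNA-seq of 12 libraries was deposited as 1 table of FPKM. Per the submitters' processing notes, the authors used TopHat2, Cufflinks 2.1.1 and mouse build mm9 to make the FPKM. Which annotation, options and between-library scaling they chose is not given in the sources used here. A low-input SMARTer kit amplified the cDNA, per the labels' protocols. FPKM summed to 396769 to 786366 per library. Depth is unknown, so no counting interval is given, and no 2 of the 66 pairs of libraries were identical.

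Groups came from the labels. Genes with at least 1 FPKM in at least 4 libraries (13433, with 9801 left out) were tested as log2(FPKM + 1), which understates changes of low genes, with limma 3.58.1 (R 4.3.3, statmod 1.5.0; trend, robust, all 12 libraries, group only, two-sided). All adjusted p-values are Benjamini-Hochberg over these genes, except for the 6 ratio tests, which used exact permutation. The test was checked on simulated data. Alternatives were pseudocount, filter, 4 scalings, array weights, replicate block, only the 2 groups compared, and each library left out. Upper-quartile scaling without day 60 replicate 1, the block within grafts alone and ratios with nothing added to FPKM were added after seeing the data.

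The labels do not say that replicate numbers pair samples, but same-numbered grafts resembled each other. Deviations from group means of same-numbered day 60 and day 120 libraries correlated at 0.180 to 0.442 (mean 0.313). Those of isolated islets with grafts ran from -0.0784 to 0.0199, below the 0.1 required.

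Named genes were the 10 members, up to 5 per list with the smallest p, and up to 3 most alike per member, without unnamed gene models or short RNAs. Pmaip1, Trp53, Bax, Ccng1, Sesn1, Top2a, Birc5, Ezh2 and Cdkn2d were named besides, after their values were seen. They are not in the counts over all alternatives. Members and lists were chosen with earlier results of these data known. Other marker lists (alpha and delta cells, duct, pericytes, lymphocytes, mast cells, red cells, Schwann cells) were also examined. Promoters are RefSeq's, GRCm38.p6.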

Additional observations from a re-analysis of the deposited data

Results flagged for a closer look

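Cdk4 in isolated islet replicate 1 was 60.752 FPKM, against 33.2 to 35.5 in the other 3 isolated islets. The gap to the nearest of them was 0.916 of the group's whole range, above Dixon's 95% critical value for 4 samples, which chance exceeds in about 1 in 20 groups. It was the only such library in 30 groups of 4 (10 genes in 3 groups). Without it the log2 change of Cdk4 was 0.96 at day 60 and 1.07 at day 120.

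The log2 ratio of Ccnd1 to Ccnd2 changed between the graft times, by -0.70 from day 60 to day 120, with all 4 day 60 grafts above all 4 day 120 grafts (exact permutation p = 0.0286, adjusted 0.0429). With same-numbered grafts paired, the adjusted exact permutation p was 0.15.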

How the results depend on the processing

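Of the comparisons of the 10 genes, 4 and 2 (higher and lower at day 60) became 3 to 4 and 1 to 2 when a library was left out. At day 120, 4 and 1 became 1 to 6 and 1 to 1, and day 120 against day 60 stayed at 0. At day 120 the genes called higher were 2 without the filter, 2 with upper-quartile scaling and 1 after quantile normalization. They were 0 with endocrine reference scaling and 7 with array weights. Of all 13433 tested genes, 3268 were higher there as deposited, 2347 with upper-quartile scaling and 1529 after quantile normalization. The shares were 0.886% with endocrine reference scaling and 48.7% with array weights. With endocrine reference scaling 0 of the 10 were lower at day 60 (2.57% of all genes) and 0 at day 120 (1.46%). Without both isolated islet 1 and day 60 graft 1, 1 of the 10 was lower at day 60 (15.4%). With array weights 1 was higher and 4 lower between graft times (7.8% and 13.6%). Left-out libraries moved the count of all genes from 4211 higher and 1654 lower to between 3018 and 4969 and between 991 and 1892 at day 60. At day 120 they moved it from 3268 and 944 to between 1387 and 4210 and between 394 and 1306. Array weights gave 7258 and 3101 at day 60, 6543 and 2400 at day 120 and 1048 and 1826 between grafts, quantile normalization 2395 and 2909 at day 60 and 1529 and 1826 at day 120, and endocrine reference scaling 345 lower at day 60 and 119 and 196 at day 120. At day 60, 2632 were higher with a filter of 5 FPKM and 2673 with the sum without hormone and acinar genes. Without both libraries, 5655 and 1782 were called at day 120. The causes were not tested. Over all alternatives, the log2 changes of the 10 genes kept their sign and their side of the threshold in 511 cases, lost a call in 42, gained one in 18 and turned sign in 26. Those of the other named genes did so in 810, 88, 31 and 13. Depth is unknown, so the share of counting error in these values cannot be given.

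Ratio differences with a library left out were 1.11 to 1.39, 0.41 to 0.61 and -0.88 to -0.62 for Ccnd1 to Ccnd2, and -2.21 to -1.30, -2.60 to -2.27 and -1.09 to -0.17 for Cdkn1a to Cdkn1b. With a replicate block (exact permutation of paired signs) the differences 1.198, 0.50, -0.70 and -2.39 had an adjusted p of 0.15, since 4 pairs cannot go below 0.125. In limma, the replicate block over 12 libraries gained Ccnd3 at day 120 (adjusted p = 0.0205), lost Cdkn2a there (0.0542) and changed no other call of the 10 genes. Of the other named genes it lost Ccne2 at day 60 (0.0582) and E2f1 (0.0643) and Mcm7 (0.0534) at day 120, and gained Cdc37 at day 60 (0.0365) and Sesn2 at day 120 (0.0452).

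All sign changes were in values not called. At day 60 Cdkn1b was -0.060 with upper-quartile scaling, -0.017 after quantile normalization, -0.16 with the sum without hormone and acinar genes and -0.0075 to 0.29 with a library left out. Cdkn2a was -0.065 after quantile normalization, and Cdkn2b 0.32 with endocrine reference scaling, 0.15 with array weights and -0.38 to 0.21 with a library left out. At day 120 Ccnd2 was -0.0094 with upper-quartile and -0.093 with endocrine reference scaling. After quantile normalization Cdk2 was -0.056, Ccne2 -0.31, E2f3 -0.049, Mcm5 -0.15, Ccnb1 -0.45 and Ccnb2 -0.056. Ccnb1 was -0.028 with upper-quartile scaling, -0.0048 with the sum, -0.050 with the endocrine reference and -0.060 to 0.14 with a library left out. Between graft times Ccnd1 was -0.47, Cdkn1b -0.41, Cdkn2a -0.32 and Cdk4 -0.55 with the endocrine reference, and Ccnd1 -0.25 with array weights. Ccnd3 was 0.065 and Cdkn2b 0.045 without both libraries, and Ccnd3 0.034, Cdkn2b 0.022 and Cdk4 -0.022 with upper-quartile scaling without day 60 graft 1. With a library left out, Ccnd1 was -0.058 to 0.37, Ccnd3 -0.35 to 0.065, Cdkn2b -0.55 to 0.045 and Cdkn2a -0.011 to 0.22.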
